A study of Mus musculus with 8 samples.

Results

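The replication-dependent core histone genes and the linker histone genes were followed in microglial RNA from mice with and without experimental autoimmune encephalomyelitis (EAE), an induced inflammatory disease of the central nervous system. Members were taken by name alone, as genes whose array symbol began with Hist1h, Hist2h, Hist3h or Hist4h or whose current symbol was of the H1f, H2ac, H2bc, H3c or H4c series. After 1 pseudogene named as such (Hist3h2bb-ps) was dropped, 28 of 30702 named genes remained: 5 for linker histone H1, 10 for H2A, 8 for H2B, 3 for H3 and 2 for H4. They were represented by 29 probe sets, with the brighter taken where a gene had more than 1. H2ac14 (Hist1h2aj) is classed as a pseudogene by RefSeq although its name does not say so. The count of members that passed in EAE against naive is also given without it, as is the unadjusted count between genotypes. The other counts include it.

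The series held 8 arrays, 1 for each combination of 2 genotypes and 4 states, all of mice labelled C57Black/6J. Control mice carried the labels FL or F/F, taken here to mean floxed without deletion (the control array with iguratimod is also labelled wt). The icKO mice lacked the connexin Cx47, a gap junction protein of oligodendrocytes, after a conditional deletion that the study's title places in oligodendroglia, so that the microglia themselves are not the cells named as deleted. The Cre driver, the number of animals behind each RNA sample and the meaning of p50 are not given in the sources used here. The states were naive, EAE, EAE with iguratimod (an anti-inflammatory drug, labelled IGU), and EAE labelled p50. The gene for Cx47 was not analysed here, so the deletion was not checked on these arrays.

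Histones are the proteins around which DNA is wound: pairs of H2A, H2B, H3 and H4 form the nucleosome core, and H1 binds the linker DNA between cores. Most are encoded by many near-identical, intronless genes in clusters, which are transcribed chiefly in S phase and whose messages end in a stem-loop bound by the protein SLBP in place of a poly(A) tail. Several of them, H1f2 and H2bc21 among them, are known also to give polyadenylated transcripts in cells that do not divide. Adult microglia divide little in the healthy brain and proliferate in EAE. The labelling kit was a whole-transcript kit per the labels' protocols, and how evenly messages without a tail were labelled was not tested.

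Of the 28 genes, 22 lie on chromosome 13 and 6 on chromosome 3 (RefSeq, GRCm38.p6), the major cluster and a smaller one. H1f2 occupies chr13:23738807-23739531 and H1f3 chr13:23555032-23555807, both on the plus strand, and H3c7 lies 10077 bases from H1f3. H2ac15 is 163 bases from H2bc15, which is read in the opposite direction. Promoter sequence was at hand in RefSeq for 25 members, all but H2ac14, H3c7 and H2bc21, as 250 bases before to 50 bases after the start. The 130 bases just before the start are shown for 5 genes on which the results below turn, the linker genes H1f2 and H1f3 and the core genes H2ac10, H2ac15 and H2bc3. Capitals mark exact matches on either strand to CCAAT (the box bound by NF-Y, ATTGG when read on the other strand), TATAAA (the TATA box), ATTTGCAT (the octamer bound by POU2F1) and AAACACA (the upstream element typical of H1 genes).
H1f2 (chr13:23738677-23738806, plus strand): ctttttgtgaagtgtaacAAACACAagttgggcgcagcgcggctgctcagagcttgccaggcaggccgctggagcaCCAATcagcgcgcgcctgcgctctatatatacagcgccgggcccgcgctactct
H1f3 (chr13:23554902-23555031, plus strand): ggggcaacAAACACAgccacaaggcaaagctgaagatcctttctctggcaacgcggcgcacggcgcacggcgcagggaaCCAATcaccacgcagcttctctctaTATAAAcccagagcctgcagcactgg
H2ac10 (chr13:23533745-23533874, plus strand): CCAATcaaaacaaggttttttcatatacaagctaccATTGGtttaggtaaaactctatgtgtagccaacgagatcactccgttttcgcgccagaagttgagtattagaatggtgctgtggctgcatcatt
H2ac15 (chr13:21753913-21754042, minus strand): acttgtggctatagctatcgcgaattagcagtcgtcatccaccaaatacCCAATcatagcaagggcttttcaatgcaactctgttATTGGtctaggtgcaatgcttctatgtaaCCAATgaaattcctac
H2bc3 (chr13:23746604-23746733, plus strand): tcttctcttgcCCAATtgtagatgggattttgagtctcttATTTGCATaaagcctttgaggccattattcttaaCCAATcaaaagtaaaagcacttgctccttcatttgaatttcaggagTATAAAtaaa

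The 2 linker promoters shown share an arrangement that the 3 core promoters shown do not have. In H1f2 the element AAACACA stands 112 bases and CCAAT 54 bases before the start, and in H1f3 they stand 122 and 51 bases before it. H1f3 has TATAAA 26 bases before the start, and H1f2 has no exact match. H2bc3 has the octamer 90 bases before the start, and H2ac10 and H2ac15 have CCAAT in both orientations. Over the 300-base windows of 25 members, CCAAT was found in 24 (96%), against 37.4% of 32851 promoters in the table. TATAAA was found in 14 (56%), against 13.6%, at any position in the window. In H2ac12, H2ac15, H2ac18 and H4c1 the only match lay after the start. In H2bc12 and H2bc22 it lay on the other strand, 198 and 212 bases before the start. ATTTGCAT was found in 8 (32%), against 1.74%, with 5 of the 7 H2B promoters among them. AAACACA was found in 7 (28%), against 7.18%, with 4 of the 5 H1 promoters among them. Both strands were searched, matches of different motifs were counted separately where they overlapped, and a match describes these letters and no binding.

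Levels are given as log2(intensity + 16), a scale on which 1 unit is a doubling for bright genes and on which the change of dim genes is understated. Testing was limited to genes brighter than the median named probe set (8.12 to 8.24) on at least 1 array. That left 15 of the 28 members: 2 of H1, 6 of H2A, 5 of H2B, 2 of H3 and 0 of H4. H2ac18, with a highest level of 8.05, was just below the limit, and H2ac20, at 8.38, was just above it. The 13 dimmer members, among them H1f1, H1f5, the testis linker gene H1f6 and both H4 genes, had their highest levels between 5.45 and 8.05. The brightest of the H4 members, H4c1, lay between 7.15 and 7.57 on the 8 arrays. A dim probe set cannot be told from an absent message here, since no detection calls were used.

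Copies limit what can be assigned to a gene. A further 39 probe sets were annotated to several genes of which at least 1 is a histone gene, and 36 of these to histone genes alone: 9 of H2A, 8 of H2B, 7 of H3, 11 of H4 and 1 of H2A and H3 together. One annotation of 13 H4 genes was attached to each of several probe sets, as was one of 10 H2A genes. The shared probe sets were kept apart from the 28 genes, are named by their first listed gene in the array's own symbols, and were fitted in a second model over 19486 rows. Single-gene probe sets of such families can also pick up messages of near-identical copies, so a value of H2ac14, H2ac10, H2ac15 or H2bc3 may hold signal of other copies. H2ac18 and H2ac19 are such a pair, and 2 shared probe sets list both.

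Each difference between states was fitted over both genotypes with limma in an additive model of state and genotype, which leaves 3 residual degrees of freedom, and p-values were adjusted by Benjamini-Hochberg over the 18234 genes tested. With 1 array a group, the errors (SE) measure the spread of these arrays around that model, and nothing says how much of it is technical. In RNA of a whole sample, fewer cells of a type and less RNA per cell cannot be told apart.

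The arrays carried the markers of microglia, whose 9 measured genes had a median level between 12.53 and 13.78, while medians of T cell, B cell, oligodendrocyte, astrocyte, neuron and endothelial markers lay between 7.12 and 8.32 and the 1 measured erythroid gene between 8.27 and 8.61. Neutrophil markers were higher in EAE than in naive mice by a median of 3.47 (0 of 10 passed the test described above). Monocyte markers were higher by a median of 2.08 (3 of 8 tested rose, against 3.38% of all genes tested). The log2 of the summed intensity of the neutrophil markers (10 of 10 measured, none at 0) was 14.70 and 12.75 in naive control and icKO, 19.78 and 16.66 in EAE, 15.34 and 17.03 with iguratimod, and 12.69 and 13.72 in p50 EAE. That of the 9 measured monocyte markers was 11.72 and 11.33, 14.77 and 14.76, 12.36 and 13.58, and 11.79 and 12.11 on the same arrays. On the control EAE array the neutrophil markers exceeded the microglial ones, with medians of 14.42 and 13.08 and summed levels of 19.78 and 18.96. On every other array the microglial markers had the higher median and sum. Monocyte medians lay between 7.97 and 9.91. The p50 arrays also differed in sex-linked genes, with Xist at 15.90 and 16.64 against 7.71 to 8.30 on the other 6, so that p50 and sex cannot be told apart. None of the histone members is on a sex chromosome.

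EAE against naive asked which histone genes changed with the disease. Of the 15 tested members 1 rose, H2ac14, against 3.38% of all genes tested, and none fell, against 0.389%. Without H2ac14 the count was 0 of 14. At an unadjusted p under 0.05, 5 members were higher and 2 lower, against 13% and 6.15% of genes tested. Of the 5, H2ac15, H2ac20 and H2bc18 were below the brightness limit on both naive arrays. Their higher level in EAE is therefore not independent of their being tested. The median difference of the 28 members was 0.13, and that of all named genes -0.05. By class the medians were 0.30 for H2A, 0.31 for H2B, -0.34 for H3 and -0.35 for H1, with 9 of 10 H2A and 7 of 8 H2B members above 0 and 4 of 5 H1 members below 0.

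The core histone genes of H2A gave the larger positive values. H2ac14 lay at 12.84 (control) and 13.49 (icKO) in naive mice, 14.23 and 14.45 in EAE, 13.68 and 13.88 in EAE with iguratimod, and 13.87 and 14.25 in p50 EAE. All 6 EAE arrays were above both naive arrays, and untreated EAE was highest in each genotype. The difference between EAE and naive was 1.17 ± 0.15 (adjusted p = 0.0251), 1.40 in control and 0.95 in icKO. It missed the threshold after quantile normalization (0.82, adjusted p = 0.0898), without any 1 of the naive or EAE arrays (0.98 to 1.37, adjusted p between 0.0792 and 0.147) and without the p50 arrays (adjusted p = 0.0596). H2ac15 lay at 7.18 (control) and 7.72 (icKO) in naive mice, 8.74 and 8.45 in EAE, 8.21 and 8.28 in EAE with iguratimod, and 7.93 and 7.67 in p50 EAE. Its difference of 1.14 ± 0.23 (1.55 in control, 0.73 in icKO) did not pass (adjusted p = 0.0567), and its 2 naive levels were below those of EAE with and without iguratimod. H2ac10 lay at 11.67 (control) and 12.15 (icKO) in naive mice, 12.58 and 12.63 in EAE, 12.31 and 12.29 in EAE with iguratimod, and 12.23 and 12.74 in p50 EAE. All its EAE arrays stood above both naive arrays, with a difference of 0.70 ± 0.18 that did not pass (adjusted p = 0.106).

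**Figure D1:**
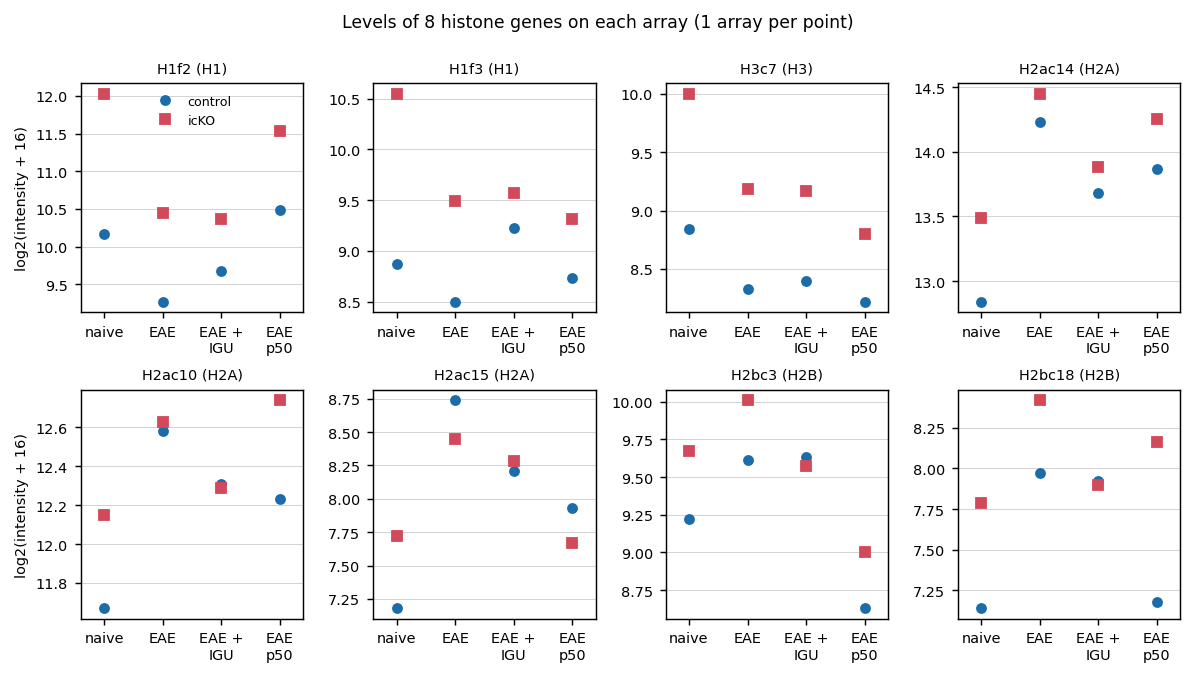
Levels, as log2(intensity + 16), of 8 histone genes in 4 states, with control as circles and icKO as squares. Each point is 1 array, so there are no error bars, and the vertical axes differ between genes and do not start at 0. H1f2, H1f3 and H3c7 are higher in icKO in each state, and H2ac14 is higher on all 6 EAE arrays than on the naive arrays.

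Among the H2B genes, H2bc18 lay at 7.14 (control) and 7.79 (icKO) in naive mice, 7.97 and 8.42 in EAE, 7.92 and 7.90 in EAE with iguratimod, and 7.18 and 8.16 in p50 EAE. Its EAE difference was 0.73 ± 0.24 (adjusted p = 0.181), and the control p50 level (7.18) was close to the naive one (7.14). H2bc1 and H2ac1, which encode testis forms of H2B and H2A, gave 0.26 ± 0.28 and 0.34 ± 0.18, neither past the threshold. The H2B gene H2bc22 gave -0.34 ± 0.19 (adjusted p = 0.401).

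The 2 tested linker genes and the 2 tested H3 genes lay the other way. H1f2, which encodes an H1 subtype of most somatic cells, lay at 10.17 (control) and 12.03 (icKO) in naive mice, 9.27 and 10.44 in EAE, 9.68 and 10.37 in EAE with iguratimod, and 10.48 and 11.54 in p50 EAE. In each genotype the EAE level was below the naive one, and the icKO level was the higher of the pair in every state. The EAE difference of -1.24 ± 0.27 (-0.90 in control, -1.59 in icKO) did not pass (adjusted p = 0.0725); under a filter at the 70th percentile its adjusted p was 0.0462. H1f3, another somatic H1 gene, gave -0.71 ± 0.32 (adjusted p = 0.3), with -0.36 in control and -1.06 in icKO. H3c7, a core H3 gene, gave -0.66 ± 0.17 (adjusted p = 0.104), with -0.50 and -0.82. H3c3, also of H3, gave -0.34 ± 0.23 (adjusted p = 0.477), with -0.78 in control and 0.10 in icKO. The shared probe sets that list both of these H3 genes lay above 0 instead, by 0.16 to 0.53, and none passed. The sign for H3 thus differed between probe sets.

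Among the probe sets shared by several genes, 4 are annotated to the same 4 H2B genes (Hist1h2bf, Hist1h2bj, Hist1h2bl and Hist1h2bn), and 2 of these 4 rose. The one first listed as Hist1h2bl lay at 8.63 (control) and 9.19 (icKO) in naive mice, 10.60 and 11.13 in EAE, 9.92 and 10.19 in EAE with iguratimod, and 9.23 and 9.63 in p50 EAE. The one first listed as Hist1h2bn lay at 8.37 (control) and 8.73 (icKO) in naive mice, 10.18 and 10.77 in EAE, 9.47 and 9.81 in EAE with iguratimod, and 8.83 and 9.60 in p50 EAE. On both, the 2 EAE levels were the highest of the 8, and within each genotype the order ran from EAE through EAE with iguratimod and p50 EAE down to naive. The EAE differences were 1.96 ± 0.13 (adjusted p = 0.014) and 1.92 ± 0.15 (adjusted p = 0.0144). Without any 1 naive or EAE array they stayed between 1.82 and 2.04, with adjusted p-values of 0.0769 to 0.113. The other 2 sets of the same genes did not pass: the one first listed as Hist1h2bf gave 0.74 ± 0.16 (adjusted p = 0.0728) and the one first listed as Hist1h2bj 0.82 ± 0.29 (adjusted p = 0.209).

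Of the 9 H2A sets 1 also rose, a probe set of 10 genes first listed as Hist1h2ai, by 0.74 ± 0.14 (adjusted p = 0.0483). The other 6 sets with the same annotation gave 0.15 to 0.98 and did not pass. The Hist1h2ai set missed the threshold with any 1 array left out (adjusted p between 0.0738 and 0.202), without a filter and after quantile normalization. Thus 3 of 36 shared sets (31 of them tested) rose and 0 fell, against 3.51% and 0.503% of the rows in that model. In all, 34 of 36 had a positive difference, with a median of 0.37, including 8 of 8 for H2B (median 0.78), 9 of 9 for H2A (0.43), 7 of 7 for H3 (0.29) and 9 of 11 for H4 (0.12). Shared sets are not independent of each other, since several carry the same genes. The largest difference of an H4 set, first listed as Hist2h4, was 0.97 ± 0.27 (adjusted p = 0.126), and it lay at 10.35 (control) and 10.88 (icKO) in naive mice, 11.68 and 11.49 in EAE, 10.73 and 11.57 in EAE with iguratimod, and 10.80 and 10.76 in p50 EAE. Its lowest level was that of naive control, and 3 of the 4 p50 and naive arrays lay between 10.76 and 10.88. The neutrophil and monocyte markers given above were also higher in summed level on the same EAE arrays, and their part in these values was not tested.

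**Figure D2:**
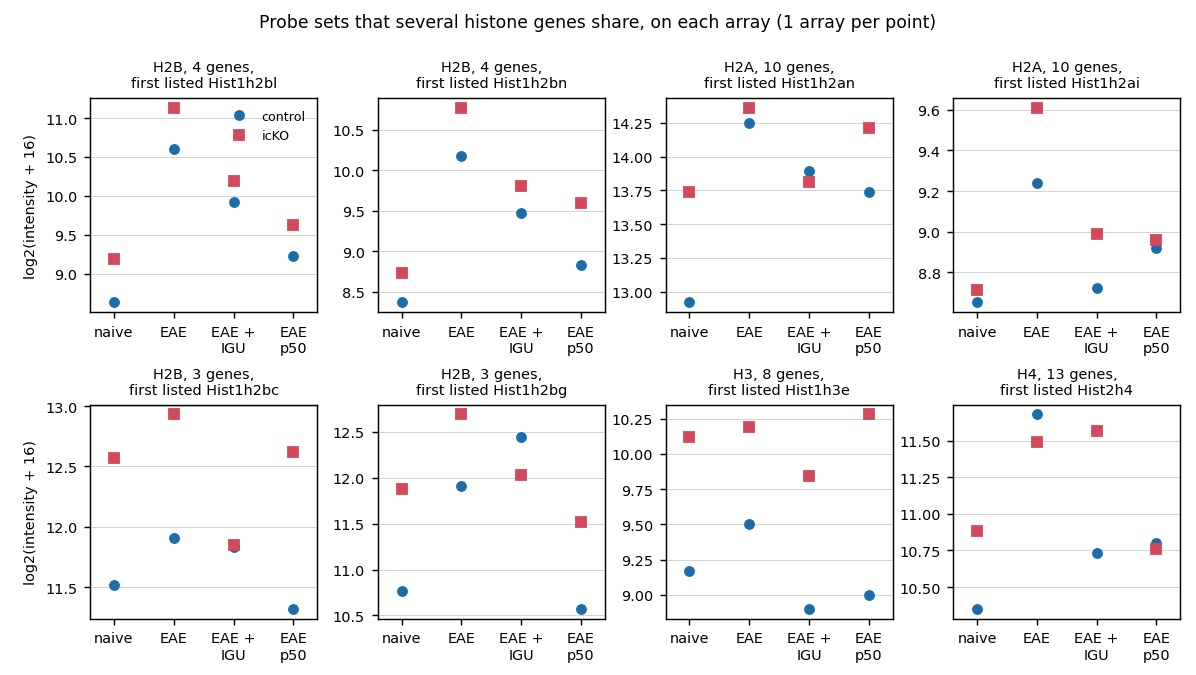
Levels, as log2(intensity + 16), of 8 probe sets that are each annotated to several histone genes, in 4 states, with control as circles and icKO as squares. Each point is 1 array, without error bars, and the vertical axes differ and do not start at 0. On the first 2 panels, 2 of the 4 probe sets of the same 4 H2B genes, the EAE arrays are highest, at 10.60 and 11.13 and at 10.18 and 10.77.

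Genes that act with histones were set beside them. The histone message processing genes included SLBP, its partners of the U7 particle and the cleavage factors. In EAE against naive, 12 of the 14 measured were tested and 0 passed. Of the 14, 12 were above 0, with a median of 0.18. Slbp itself gave 0.04 ± 0.13 (adjusted p = 0.906), and Npat, the coactivator of histone transcription, -0.08 ± 0.24 (adjusted p = 0.881). Of 18 measured chaperone and deposition genes, 15 were tested and 1 rose, against 3.38% of all genes tested. The gene that rose was Hat1, the acetyltransferase of newly made H4, by 0.66 ± 0.12 (adjusted p = 0.047). The chaperone Nap1l1 gave 1.25 ± 0.27 and missed the threshold (adjusted p = 0.0699). Of 8 measured replication-independent variants, 6 were tested and 3 rose, against 3.38% of all genes tested. H2az1 rose by 1.31 ± 0.21 (adjusted p = 0.0332) and H2ax by 1.08 ± 0.18 (adjusted p = 0.0398). H2ax was above the brightness limit on the untreated EAE arrays only, so its higher level there is not independent of its being tested. The centromere histone gene Cenpa rose by 0.67 ± 0.13 (adjusted p = 0.05, just under the threshold before rounding).

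Of 22 measured S phase genes, 13 were tested and 0 passed, with 21 of the 22 above 0 and a median of 0.30. Mcm3 and Mcm6, of the replicative helicase, gave 0.82 ± 0.16 (adjusted p = 0.0564) and 0.79 ± 0.15 (adjusted p = 0.0549). Of 17 measured genes of G2 and mitosis, 13 were tested and 7 rose, against 3.38% of all genes tested. Of the 7, Mki67, Top2a, Ccnb2, Plk1, Tpx2 and Nusap1 were below the brightness limit on both naive arrays. Their higher level in EAE is therefore not independent of their being tested. All 17 were above 0, with a median of 0.51. Mki67, the proliferation marker, rose by 3.56 ± 0.17 (adjusted p = 0.0135).

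EAE with iguratimod was set against naive and against untreated EAE, and both comparisons share arrays with the one above. No member passed in either limma fit. Of all genes tested, 0.00548% were higher and 0% lower against naive, and 0% passed against EAE. At an unadjusted p under 0.05, 3 members were higher and 2 lower against naive (7.17% and 3.76% of all genes), and 0 were higher and 1 lower against EAE (2.93% and 5.58%). Of the 3 higher against naive, H2ac15 and H2ac20 were below the brightness limit on both naive arrays. H2ac14 gave 0.61 ± 0.15 against naive (adjusted p = 0.253) and -0.56 ± 0.15 against EAE (adjusted p = 0.52), with -0.56 in each genotype. H2ac15 gave 0.79 ± 0.23 and -0.35 ± 0.23, and H2ac10 0.39 ± 0.18 and -0.31 ± 0.18. H1f2 gave -1.07 ± 0.27 against naive (adjusted p = 0.253) and 0.17 ± 0.27 against EAE (adjusted p = 0.91).

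The medians of the 28 members were 0.07 against naive and -0.04 against EAE, beside 0.00 and 0.03 for all named genes. Of the 36 shared sets, 30 were below 0 against EAE, with a median of -0.25, and none passed. All 8 H2B sets and all 7 H3 sets were among them. Of the 4 sets of the same 4 H2B genes, those first listed as Hist1h2bl and Hist1h2bn gave -0.81 ± 0.13 and -0.83 ± 0.15, each with adjusted p = 0.513, and those first listed as Hist1h2bf and Hist1h2bj gave -0.41 ± 0.16 and -0.33 ± 0.29, the last with 0.27 in control and -0.94 in icKO. Over the same contrast 9 of 10 neutrophil markers were below 0, with a median of -1.70, as were 9 of 9 monocyte markers, with a median of -0.97, and their part was not tested.

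The p50 arrays asked how EAE at p50 differed from naive and from EAE. Against naive, no member passed (0.351% of all genes were higher and 0.400% lower), while 2 were higher and 2 lower at an unadjusted p under 0.05 (12.3% and 8.22%). H2ac14 gave 0.89 ± 0.15 (adjusted p = 0.0699), H3c7 -0.91 ± 0.17 (adjusted p = 0.0755) and H2bc3 -0.63 ± 0.16 (adjusted p = 0.123). With arrays centred on their median, H2ac14 passed (0.96, adjusted p = 0.0487).

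Against EAE, 1 of the 15 tested members fell, H2bc3, against 1.62% of genes tested, and 0 rose, against 1.09%. H2bc3 lay at 9.22 (control) and 9.67 (icKO) in naive mice, 9.61 and 10.01 in EAE, 9.63 and 9.57 in EAE with iguratimod, and 8.63 and 9.0 in p50 EAE. Both p50 levels were below the other 6. The difference from EAE was -0.99 ± 0.16 (adjusted p = 0.0424), -0.97 in control and -1.01 in icKO. It missed the threshold without a filter (adjusted p = 0.056), after quantile normalization (-0.92, 0.065) and without any 1 of the naive, EAE or p50 arrays (-0.92 to -1.07, adjusted p between 0.0708 and 0.293). In all, 22 of the 28 members were below 0, with a median of -0.23 (all named genes, -0.01), including 10 of 10 H2A and 7 of 8 H2B members. H2ac15 gave -0.79 ± 0.23 (adjusted p = 0.132), H2bc21 -0.53 ± 0.16 (adjusted p = 0.149) and H2bc18 -0.52 ± 0.24 (adjusted p = 0.309). H2ac15 and H2bc21 were below the brightness limit on both p50 arrays, so their lower level there is not independent of their being tested.

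H1f2 and H2bc22 lay the other way in this comparison. H1f2 gave 1.15 ± 0.27 (adjusted p = 0.0909), with 1.21 in control and 1.10 in icKO. Its p50 level was above the naive one in control (10.48 against 10.17) and below it in icKO (11.54 against 12.03). On the 4 arrays of this comparison alone its adjusted p was 0.0282. H2bc22 gave 0.65 ± 0.19 (adjusted p = 0.148). It was below the brightness limit on both untreated EAE arrays, so its higher p50 level is not independent of its being tested. H1f3, the other bright linker gene, gave 0.02 ± 0.32, so the linker genes did not share this value.

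Of the shared sets, 31 of 36 were below 0 against EAE, with a median of -0.35. Of the 4 sets of the same 4 H2B genes, those first listed as Hist1h2bl and Hist1h2bn fell, with differences of -1.44 ± 0.13 (adjusted p = 0.00407) and -1.26 ± 0.15 (adjusted p = 0.0118), and 0 rose, against 2.82% of rows lower and 1.84% higher in that model. Both were lower in each genotype: -1.37 and -1.51 on the first, -1.35 and -1.17 on the second. The other 2 sets of these genes gave -0.61 ± 0.16 (adjusted p = 0.103) and -0.62 ± 0.29 (adjusted p = 0.303), and a set of 3 H2B genes first listed as Hist1h2bg gave -1.26 ± 0.37 (adjusted p = 0.13). Of the 2 that fell, the first missed the threshold without the icKO p50 array (adjusted p = 0.0621), and the second without any 1 EAE or p50 array (adjusted p between 0.0547 and 0.085). In the same comparison 7 of the 13 tested genes of G2 and mitosis fell, against 1.62% of all genes tested. Of the 7, Top2a, Ccnb2, Cdk1, Plk1 and Nusap1 were below the brightness limit on both p50 arrays. Their lower level there is therefore not independent of their being tested. Of 13 tested S phase genes 0 passed, and 21 of the 22 measured were below 0. The neutrophil markers had a median of -3.44. The part of these 3 groups of genes, and that of sex, was not tested.

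**Figure D3:**
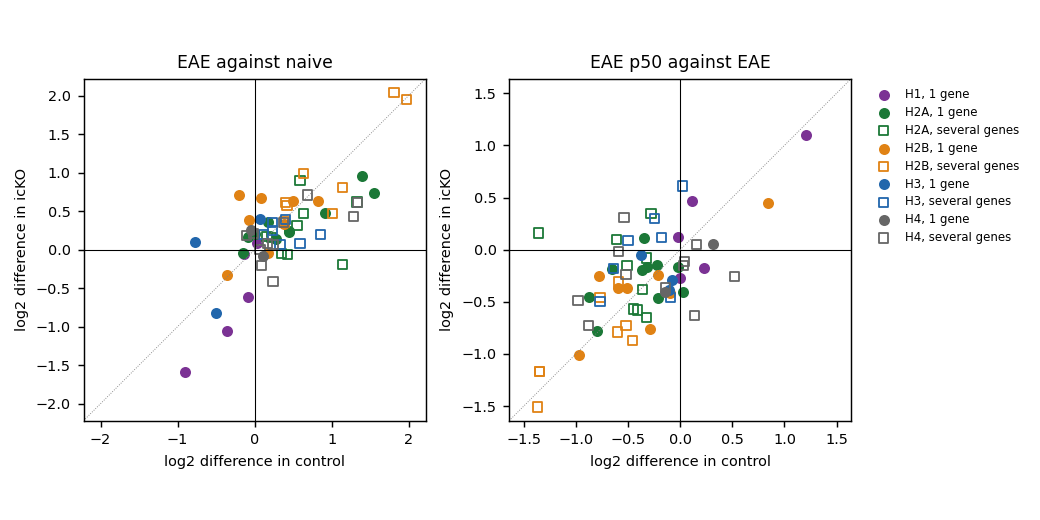
Log2 differences in control (horizontal) and icKO (vertical) for EAE against naive (left) and p50 EAE against EAE (right), for 28 histone genes (filled circles) and 35 shared probe sets of 1 class (open squares), coloured by class. Each point is a difference of 1 array from 1 array in each genotype and the dotted line marks equal values. On the left, 2 of the 4 sets of the same 4 H2B genes stand farthest to the upper right; on the right these 2 and a set of 3 H2B genes stand at the lower left. H1f2 stands farthest to the lower left in the EAE panel.

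Comparing icKO with control asked how loss of Cx47 in oligodendroglia bore on microglial histone messages. Over the 4 states no member passed in limma, nor did any of the 18234 genes (0% higher and 0% lower), and the lowest adjusted p among members was 0.856. At an unadjusted p under 0.05, 8 of the 15 tested members were higher and 0 lower, against 1.92% and 3.50% of genes tested. The 8 were H1f2, H1f3, H2ac14, H2ac20, H2bc18, H2bc21, H2bc3 and H3c7. Of these, H2ac20, H2bc18 and H2bc21 were above the brightness limit on icKO arrays only. Their higher icKO level is therefore not independent of their being tested. The count was 5 without the p50 pair or without the EAE pair, 4 with a filter at the 70th percentile and 7 without H2ac14. The median of the 28 members was 0.09 and that of all named genes -0.02.

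The larger values were those of 2 linker genes and 1 gene of H3. H1f2, with its 8 levels given above, differed by 1.19 ± 0.19 (unadjusted p = 0.000864, adjusted p = 0.856) over the states and by 1.86 in naive, 1.16 in EAE, 0.69 with iguratimod and 1.05 in p50 EAE. Every icKO level exceeded its control partner, but control p50 (10.48) was above icKO EAE (10.44) and icKO with iguratimod (10.37), so the genotypes overlapped across states. H1f3 lay at 8.87 (control) and 10.55 (icKO) in naive mice, 8.50 and 9.49 in EAE, 9.23 and 9.57 in EAE with iguratimod, and 8.73 and 9.31 in p50 EAE. It differed by 0.90 ± 0.23 (adjusted p = 0.859), by 1.68 in naive and by 0.34 to 0.99 in the other states. The 4 icKO levels, from 9.31 up, were all above the 4 control levels, which reached 9.23.

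H3c7 lay at 8.84 (control) and 10 (icKO) in naive mice, 8.33 and 9.18 in EAE, 8.40 and 9.17 in EAE with iguratimod, and 8.22 and 8.80 in p50 EAE. It differed by 0.84 ± 0.12 (unadjusted p = 0.000433, adjusted p = 0.856), by 1.17 in naive, 0.85 in EAE, 0.77 with iguratimod and 0.57 in p50 EAE. Its lowest icKO level (8.80) was below the highest control level (8.84). For these 3 genes the difference was larger in naive mice than in any of the EAE states, and whether it differed between states was not tested, since 1 array a group leaves no degrees of freedom for it.

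Smaller differences of the same sign were seen in other classes. H2ac20 gave 0.39 ± 0.09, H2bc21 0.37 ± 0.11 and H2ac14 0.36 ± 0.11, each above 0 in all 4 states. H2bc18 gave 0.52 ± 0.17, with 0.65, 0.45, -0.02 and 0.98 in naive, EAE, iguratimod and p50, and H2bc3 gave 0.29 ± 0.12, with -0.06 under iguratimod. In all 4 states, 6 of the 28 members (21.4%) were higher in icKO and 0 were lower, against 4.90% and 7.92% of genes tested and 4.45% and 7.96% of all named genes. They were H1f2, H1f3, H2ac14, H2ac20, H2bc21 and H3c7. H3c3, the other tested H3 gene, gave 0.05 ± 0.16, and H2ac15 gave 0.01 ± 0.16.

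Past 2-fold within a state, 3 tested members were higher in naive icKO mice (H1f2, H1f3 and H3c7, against 0.263% of genes tested), 1 in EAE (H1f2, 1.28%), 0 with iguratimod (1.26%) and 1 in p50 EAE (H1f2, 0.291%). No member was lower past 2-fold in any state (1.63%, 0.565%, 1.95% and 0.0877%). Among the dim members H2ac18 differed by 1.02 in p50 EAE and by -0.59 with iguratimod. Both shared probe sets that list H2ac18 and H2ac19 were brighter (11.89 to 13.02) and higher in icKO in each state, by 0.33 to 0.72. The single-gene value of H2ac19 differed by -0.15 to 0.29. These are differences of 1 array from 1 array and have no test. The medians of the 28 members were 0.14, 0.21, 0.06 and 0.18 in the 4 states.

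**Figure D4:**
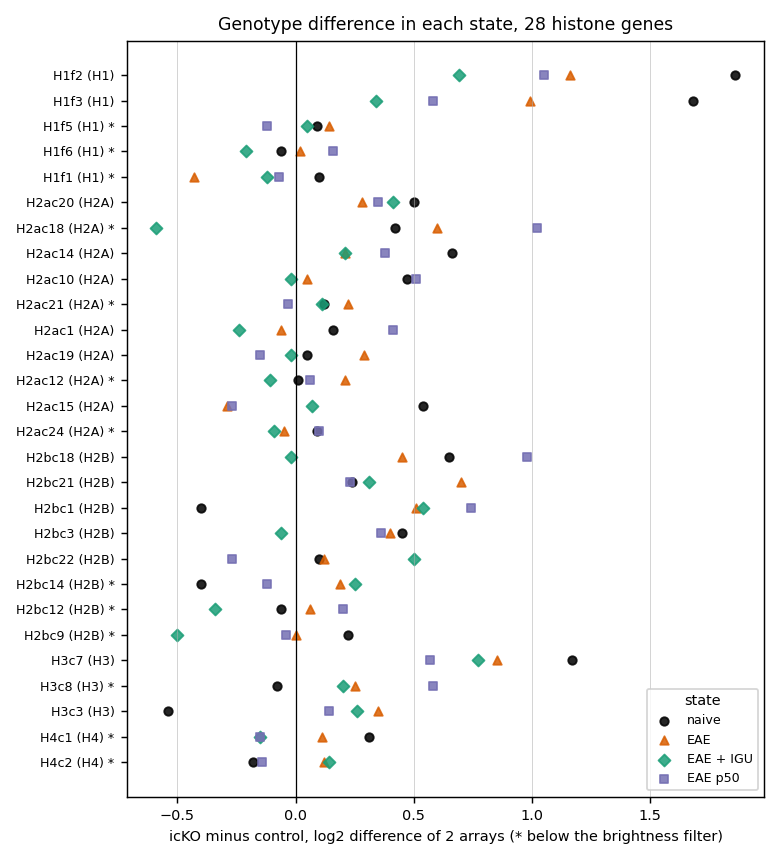
The icKO minus control difference on the log2 scale for each of 28 histone genes (rows, grouped by class) in naive, EAE, EAE with iguratimod and p50 EAE (symbols). Each symbol is a difference of 2 arrays, and an asterisk marks genes below the brightness filter, which were not tested. H1f2, H1f3 and H3c7 lie right of 0 in every state, from 0.34 to 1.86.

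Of the 36 shared sets, 14 were higher in icKO in all 4 states and 0 lower: 5 of 7 for H3, 3 of 9 for H2A, 3 of 8 for H2B, 2 of 11 for H4, and the set of H2A and H3. Of all 1492 rows annotated to several genes, 4.69% were higher and 11.6% lower in all 4 states. None passed (lowest adjusted p = 0.765). The largest difference over the states was 0.97 ± 0.12, on a set of 8 H3 genes first listed as Hist1h3e, which also lists H3c3 and H3c7 by their array symbols Hist1h3c and Hist1h3f. It lay at 9.17 (control) and 10.12 (icKO) in naive mice, 9.50 and 10.19 in EAE, 8.90 and 9.84 in EAE with iguratimod, and 9.0 and 10.28 in p50 EAE. The lowest icKO level (9.84) was above the highest control level (9.50). The other 3 sets of the same 8 genes gave 0.15 to 0.40, and 2 of them were lower in icKO in EAE. A set of 3 H2B genes first listed as Hist1h2bc gave 0.85 ± 0.22 and lay at 11.52 (control) and 12.57 (icKO) in naive mice, 11.91 and 12.93 in EAE, 11.83 and 11.85 in EAE with iguratimod, and 11.32 and 12.62 in p50 EAE. It differed by 1.05 in naive, 1.02 in EAE, 0.02 with iguratimod and 1.30 in p50 EAE. The other set of the same 3 genes, first listed as Hist1h2bg, differed by 1.11, 0.78, -0.41 and 0.95.

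None of the genes set beside the histones passed in the genotype comparison. Tested were 12 of 14 processing, 15 of 18 chaperone, 6 of 8 variant, 13 of 22 S phase and 13 of 17 mitosis genes. S phase genes had 13 of 22 above 0 and 9 below, with a median of 0.02. The largest of these differences was that of Pcna, 0.61 ± 0.15 (adjusted p = 0.859), which was higher in icKO in each state. The largest below 0 was that of Ccne1, -0.28 ± 0.12 (adjusted p = 0.882). Genes of G2 and mitosis had 16 of 17 below 0 with a median of -0.11. Neutrophil markers were below 0 in 10 of 10, with a median of -0.33, and microglial markers in 7 of 9, with a median of -0.11. Monocyte markers were above 0 in 7 of 9, with a median of 0.19. The part of these in the higher histone levels was not tested.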

How the data were processed

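RNA of microglia was hybridised to Affymetrix mouse whole-transcript arrays, 1 per group, and Affymetrix Expression Console is named in the submitters' processing notes. The authors deposited summarised linear intensities for 65956 rows and 8 arrays (array medians 243 to 269). Their summarisation and normalization steps are not given in the sources used here; precision is limited by having 8 arrays. The platform annotation, updated in 1199 symbols through RefSeq (GRCm38.p6), gave 31258 rows with 1 gene, 1492 with several and 33206 unnamed. All 29 member probe sets matched a current symbol. Values were taken as log2(intensity + 16), the brightest probe set per gene, and fitted with limma 3.58.1 (R 4.3.3; lmFit, eBayes; prior SD 0.16, prior df 2.87) over 18234 genes, at an adjusted p of 0.05. The model was tested on simulated data. Promoters were searched in Python 3.11.15.

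Members, lists and tests were chosen with earlier results of these data known. Named members were those that passed, the 4 with the largest difference each way per comparison, those of 1 sign in all 4 states for genotype, and the brightest of each class. Alternatives were other pseudocounts (1 and 64), filters, normalizations, priors and probe set rules, and leaving out arrays. The separate fit of shared probe sets was added after seeing the data.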

Additional observations from a re-analysis of the deposited data

Results flagged for a closer look

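In 11 cases a named member moved one way in control and the other way in icKO, or differed between genotypes one way in 1 state and the other way in another. None of these differences was tested, since each rests on 4 single arrays.

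For EAE against naive, H3c3 gave -0.78 in control and 0.10 in icKO, a difference of 0.88. For EAE with iguratimod against naive, H1f3 gave 0.37 and -0.98, a difference of -1.35, and H3c3 gave -0.54 and 0.25, a difference of 0.79. For iguratimod against untreated EAE, H1f2 gave 0.41 and -0.07, a difference of -0.48. For p50 EAE against naive, H2ac15 gave 0.75 and -0.05, a difference of -0.80. For p50 EAE against EAE, H1f3 gave 0.23 and -0.18, a difference of -0.41. The icKO minus control difference of H2bc18 was -0.02 with iguratimod and 0.98 in p50 EAE, a gap of -1.0. Likewise it was -0.06 with iguratimod and 0.45 in naive mice for H2bc3, a gap of -0.51, -0.54 in naive mice and 0.35 in EAE for H3c3, a gap of -0.89, and -0.29 in EAE and 0.54 in naive mice for H2ac15, a gap of -0.83. For H2ac18, which was too dim to be tested, it was -0.59 with iguratimod and 1.02 in p50 EAE, a gap of -1.61. Both shared probe sets that list H2ac18 were higher in icKO in these states.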

How the results depend on the processing

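No paired analysis was possible because the labels give no replicate numbers and each group holds 1 array; genotype was a term of every fit. No sign of a called value turned under any alternative. In EAE against naive the count of members passing (1) was 2 with a filter at the 70th percentile and 0 after quantile normalization, without the p50 pair and on the 4 arrays alone, and 0 to 1 when 1 array was left out. In p50 EAE against EAE (1) it was 0 without a filter, after quantile normalization and without the naive pair (added after seeing the data), 3 on the 4 arrays alone, and 0 to 1 when 1 array was left out. In p50 EAE against naive (0) it was 1 with arrays centred on their median (2.13% of all genes tested). The share of all genes called moved as well. For EAE against naive it was 7.67% with the 70th percentile filter and 1.13% after quantile normalization. Without the p50 pair it was 1.27%, and on the 4 arrays alone 0%. For p50 EAE against EAE it was 1.12% without a filter and 1.89% after quantile normalization. Without the naive pair it was 1.69%, and on the 4 arrays alone 5.31%. At an unadjusted p under 0.05, a count added after seeing the data, the genotype comparison (8) gave 4 with the 70th percentile filter, 5 without the p50 pair, 5 without the EAE pair and 5 to 8 when 1 array was left out, and EAE against naive (7) gave 4 with that filter and 4 to 8. At 1.5-fold instead of 2-fold, 5 members differed between genotypes in naive, 4 in EAE, 2 with iguratimod and 3 in p50 mice, and with a pseudocount of 1 the EAE and p50 counts were 2 each. The 6 members higher in icKO in all 4 states were 6 to 9 under other scalings, pseudocounts and probe set rules. The cause was not tested. With 1 array a group, 13 of 28 members dim and copies that share probes, smaller differences were not detectable here.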
